A study of Rattus norvegicus with 9 samples.

Results

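Satellite glial cells wrap the cell bodies of sensory neurons in the dorsal root ganglion (DRG). Followed here is the messenger RNA of 8 genes used as their markers, Gfap, Vim, Fabp7, Apoe, Gja1, S100b, Sox10 and Erbb3. These were chosen by symbol from the 20194 genes of the expression table. All 8 reached an FPKM (fragments, scaled for transcript length and for the size of the library) of 1 in at least 1 library, and were thus among the 14305 genes tested. The DRG of adult male Sprague Dawley rats (8 to 10 weeks old) was compared in 3 groups of 3 libraries. The sham group had no nerve injury. In the SNI group (spared nerve injury), the tibial and common peroneal branches of the sciatic nerve had been tied and cut, and the sural branch was left intact. The SNI + G15 group had the same injury and received G15, a blocker of the G protein-coupled oestrogen receptor GPER, through an intrathecal catheter (1.8 μg/μl, 1 μl) placed on day 5 after SNI, with 24 h of exposure. The sham and SNI libraries are labelled as controls for G15, and the labels do not say whether these rats received the DMSO vehicle. The methods speak of 3 rats and the list of animals of more rats than there are libraries, so that it is not settled whether a library is 1 rat or a pool, and the p-values measure the spread between libraries. The whole ganglion was sequenced, and in such bulk RNA fewer cells of a type and less RNA per cell cannot be told apart.

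Satellite glia arise from the neural crest, carry the transcription factor Sox10 and the neuregulin receptor Erbb3, and share most of their markers with the Schwann cells of the ganglion. They buffer potassium and glutamate around the neuron, are coupled to each other by gap junctions made of connexin 43 (Gja1), and handle lipid through apolipoprotein E and fatty acid binding protein 7. After damage to the nerve they are known to become reactive, and the usual sign of this is the intermediate filament protein GFAP, which assembles together with vimentin. S100b, a small calcium binding protein, marks satellite glia and Schwann cells alike.

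The total estimated count lay between 18484557 and 18756736 reads per library. The test was edgeR's quasi-likelihood test on rounded estimated counts, and a gene is said to have risen or fallen where its Benjamini-Hochberg adjusted p over all tested genes was below 0.05. The libraries of a group differed by more than counting noise, and no library was a copy of another. SNI + G15 replicate 3 stood somewhat apart from the other libraries of its group: the chi-square per degree of freedom was 8.93 and 9.24 for its pairs, and 3.29 for the pair without it.

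Promoter sequence is shown for the intermediate filament genes, which rose in both steps of the comparison, and for the connexin. RefSeq promoters (rat build GRCr8, 250 bases before to 50 bases after each transcript start) were matched by gene ID for Gfap, Fabp7, Gja1, Apoe, Vim and S100b. They are printed 5′ to 3′ on the strand of the gene, up to the last base before the start, with motif matches in capitals. Gfap lies on the minus strand at chr10:88361662-88361911, Vim on the plus strand at chr17:81577011-81577260 and Gja1 on the plus strand at chr20:36302314-36302563.
Gfap: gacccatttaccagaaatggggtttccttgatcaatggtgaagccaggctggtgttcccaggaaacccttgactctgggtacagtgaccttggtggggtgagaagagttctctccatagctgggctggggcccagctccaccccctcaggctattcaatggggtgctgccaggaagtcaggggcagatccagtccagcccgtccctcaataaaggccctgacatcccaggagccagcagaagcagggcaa
Vim: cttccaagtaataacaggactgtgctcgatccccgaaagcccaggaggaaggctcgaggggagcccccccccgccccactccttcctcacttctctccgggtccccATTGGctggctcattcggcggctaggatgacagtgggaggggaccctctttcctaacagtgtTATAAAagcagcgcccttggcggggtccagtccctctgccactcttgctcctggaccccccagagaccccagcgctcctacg
Gja1: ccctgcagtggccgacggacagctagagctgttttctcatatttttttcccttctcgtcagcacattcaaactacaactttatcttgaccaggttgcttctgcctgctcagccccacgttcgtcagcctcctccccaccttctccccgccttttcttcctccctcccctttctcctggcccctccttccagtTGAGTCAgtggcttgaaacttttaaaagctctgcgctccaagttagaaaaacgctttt
The motifs searched on both strands of the whole window were a STAT site (TTCNNNGAA), an AP-1 site (TGANTCA), a SOX site (AACAANG), the CCAAT box (CCAAT) and the TATA box (TATAAA). They were present in 8.87%, 7.33%, 14.5%, 37.5% and 14.2% of all 33469 promoters of the same length. The Vim window held a CCAAT box in reverse (ATTGG, its first base 144 bases before the start) and a TATA box (82 bases before the start). The Gja1 window held an AP-1 match (TGAGTCA, 58 bases before the start) and a CCAAT box in reverse (ATTGG, 25 bases after the start and thus beyond the letters shown). None of these letters was in the Gfap window, which says nothing of the factors that act on the gene.

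Gfap showed the largest change of the 8 genes in both comparisons with sham. Its level was 5.01, 6.39 and 4.75 FPKM in the sham libraries, 32.5, 31.2 and 30.6 FPKM in the SNI libraries and 41.2, 43.5 and 44.6 FPKM in the SNI + G15 libraries. Every SNI library was above every sham library, and every SNI + G15 library was above every SNI library. Compared to sham, Gfap rose 5.72-fold in SNI (log2 fold change 2.52, SE 0.087, adjusted p = 5.83e-09), a change larger than that of 99.2% of the tested genes. Compared to SNI, it rose a further 1.38-fold in SNI + G15 (log2 fold change 0.47, SE 0.050, adjusted p = 0.000658). The difference between SNI + G15 and sham was 7.79-fold (log2 fold change 2.96, SE 0.099, adjusted p = 2.13e-08), and it uses the same sham libraries as the first comparison. Gfap was the lowest of the 8 genes per length in sham, where it ranked between 8438 and 9479 among all genes by FPKM. The rank was between 2814 and 2983 after SNI, and between 2127 and 2270 when G15 was added. Its estimated counts were between 239 and 322 reads in sham, and its level was 5.38 ± 0.88 FPKM there (SD, n = 3). The SD was 16.4% of the mean in sham, 3.09% in SNI and 3.99% in SNI + G15.

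Vimentin, the partner of GFAP in the filament, was already abundant without injury. Vim was at 579, 589 and 588 FPKM in sham, 734, 736 and 740 FPKM in SNI and 999, 989 and 1007 FPKM in SNI + G15. The groups did not overlap at either step, and the SD within a group was 3.42 to 8.88 FPKM. Vim rose 1.23-fold from sham to SNI (log2 fold change 0.30, SE 0.027, adjusted p = 6.42e-06) and 1.37-fold from SNI to SNI + G15 (log2 fold change 0.45, SE 0.029, adjusted p = 3.66e-05). Between SNI + G15 and sham the log2 fold change was 0.73 (SE 0.039, adjusted p = 5.52e-07). Vim is also made by fibroblasts, vessel cells and macrophages. From sham to SNI, 3 of 10 fibroblast markers rose and 5 fell (median log2 fold change −0.13). Over all tested genes 23.3% rose and 22.4% fell. The summed level of the markers went from between 511 and 522 FPKM to between 488 and 489 FPKM. From SNI to SNI + G15, 9 rose and none fell (median 0.36), where 7.98% of all tested genes rose and 7.25% fell. Their summed level was then between 658 and 681 FPKM. Lum and Dpt, which encode matrix proteins of connective tissue, rose by 0.80 and 0.87 on the log2 scale at this second step. The part of these cells in the Vim result was not tested.

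**Figure D1:**
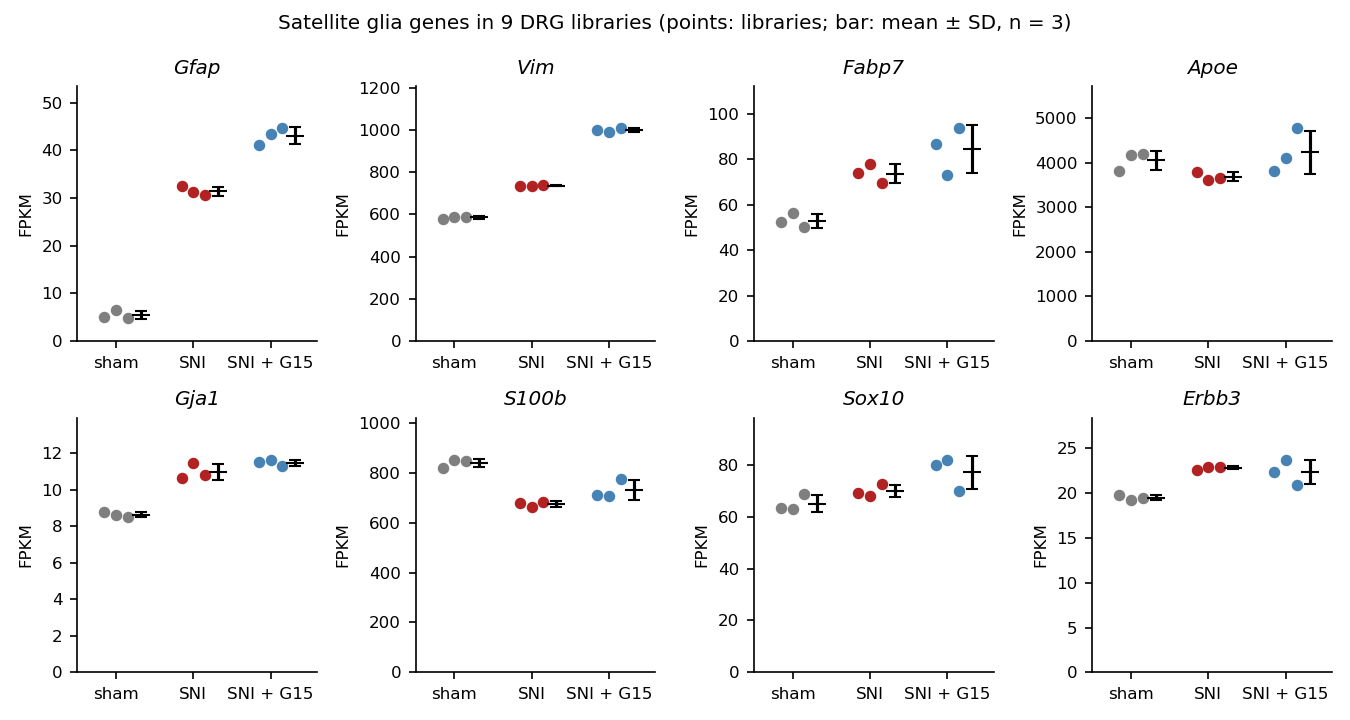
FPKM of the 8 satellite glia genes in the 9 libraries, with 1 panel per gene, groups on the x axis and an FPKM axis that starts at 0. Points are libraries, and the bar beside them gives the mean ± SD (n = 3); Gfap and Vim step up from sham to SNI and again to SNI + G15 without overlap, S100b is lower in both injured groups than in sham, and SNI + G15 replicate 3 is the highest of its group for Gfap, Vim, Fabp7, Apoe and S100b and the lowest for Gja1, Sox10 and Erbb3.

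The lipid-handling genes moved less and differed from each other. Fabp7, which carries fatty acids inside glia, was at 52.4, 56.2 and 50.3 FPKM in sham, 74.0, 78.0 and 69.4 FPKM in SNI and 86.9, 73.2 and 93.6 FPKM in SNI + G15. It rose from sham to SNI without overlap (log2 fold change 0.45, SE 0.061, adjusted p = 0.000161). The SNI + G15 libraries spread over a wider range, which overlapped that of SNI, and the difference was 0.21 on the log2 scale (SE 0.091, adjusted p = 0.146). This difference rested on single libraries: it was 0.31 without SNI + G15 replicate 2 (adjusted p = 0.0341) and 0.12 without SNI + G15 replicate 3 (adjusted p = 0.303). On the TPM scale it was 0.11 (limma, adjusted p = 0.361). The level in SNI + G15 was above sham in every library (log2 fold change 0.64, SE 0.094, adjusted p = 0.000409).

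Apoe, the main apolipoprotein of glia, was the most abundant gene of all by FPKM in each sham library. Its level was 3808, 4172 and 4188 FPKM in sham, 3798, 3605 and 3655 FPKM in SNI and 3828, 4120 and 4772 FPKM in SNI + G15. The highest SNI library was just below the lowest sham library. Apoe fell by 0.17 on the log2 scale in SNI (SE 0.040, adjusted p = 0.00574), and it did not pass in limma-trend fits of log2 FPKM (adjusted p = 0.0569 and 0.0608) or in a fit of all 9 libraries (adjusted p = 0.0697). The SNI + G15 libraries were all above the SNI libraries, by 0.22 on the log2 scale (SE 0.074, adjusted p = 0.0804 in edgeR and 0.0182 in DESeq2). Replicate 3 was well above the other two, and the difference was 0.11 without it (adjusted p = 0.0568), 0.29 without SNI + G15 replicate 1 (adjusted p = 0.0205) and 0.11 on the TPM scale (limma, adjusted p = 0.190). Against sham the log2 difference was 0.026 (SE 0.079, adjusted p = 0.812), and its sign turned without sham replicate 1 (−0.020) and without SNI + G15 replicate 3 (−0.063). Apoe made up between 66.3% and 72.5% of the summed FPKM of the 8 genes, and this sum was between 1.06% and 1.27% of all FPKM in a library. Macrophages also make apolipoprotein E. All 10 macrophage markers rose from sham to SNI (median log2 fold change 1.17), where 23.3% of all tested genes rose. Their summed level went from between 180 and 199 FPKM to between 400.3 and 412 FPKM. The part of macrophages in the Apoe level was not tested.

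Gja1, the gap junction protein of satellite glia, had a low level that rose with the injury. It was at 8.77, 8.63 and 8.49 FPKM in sham, 10.7, 11.5 and 10.8 FPKM in SNI and 11.5, 11.6 and 11.3 FPKM in SNI + G15. All SNI libraries were above all sham libraries (log2 fold change 0.32, SE 0.051, adjusted p = 0.000504). SNI and SNI + G15 overlapped, with a log2 difference of 0.079 (SE 0.052, adjusted p = 0.322), and the sign turned on the TPM scale (−0.017). Against sham, Gja1 was higher in SNI + G15 by 0.37 (SE 0.058, adjusted p = 0.000568). The estimated counts of Gja1 were not whole in 8 of 9 libraries, as happens where reads fit more than 1 place in the reference, and its values are less certain than those of the other 7 genes, whose counts were whole throughout.

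From sham to SNI, S100b went the other way from Gfap. Its level was 818, 851 and 848 FPKM in sham, 681, 662 and 681 FPKM in SNI and 709, 705 and 775 FPKM in SNI + G15. Every SNI library was below every sham library, and S100b fell by 0.34 on the log2 scale (SE 0.031, adjusted p = 6.98e-06). The SNI + G15 libraries were all above the SNI libraries and all below the sham libraries. The first difference was 0.13 (SE 0.046, adjusted p = 0.0943), and it was 0.074 without SNI + G15 replicate 3 (adjusted p = 0.0720) and 0.029 on the TPM scale (limma, adjusted p = 0.603). Against sham, S100b fell by 0.24 (SE 0.052, adjusted p = 0.00436). Myelinating Schwann cells also carry S100b. Of their 12 markers, 9 fell and none rose in SNI (median log2 fold change −0.71), where 22.4% of all tested genes fell. The summed level of the 12 was between 5483 and 5596 FPKM in sham, 3073 and 3128 FPKM in SNI, and 3339 and 3460 FPKM in SNI + G15. Mbp, a main myelin protein of the nerve, fell by 0.98. From SNI to SNI + G15, 9 of the 12 rose (median 0.21), where 7.98% of all tested genes rose. The part of Schwann cells in the S100b result was not tested.

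The lineage genes changed little. Sox10, the transcription factor that peripheral glia depend on, was at 63.4, 62.9 and 68.8 FPKM in sham, 69.1, 68.1 and 72.4 FPKM in SNI and 79.7, 81.8 and 69.9 FPKM in SNI + G15. The groups overlapped at both steps, with log2 differences of 0.074 (SE 0.046, adjusted p = 0.219) for SNI against sham and 0.16 (SE 0.058, adjusted p = 0.103) for SNI + G15 against SNI. SNI + G15 replicate 3 was the low one, and without it the second difference was 0.22 (adjusted p = 0.00461), whereas on the TPM scale it was 0.057 (limma, adjusted p = 0.622). The first was 0.12 without sham replicate 3 (adjusted p = 0.0434) and 0.046 without SNI replicate 3 (adjusted p = 0.536). Between SNI + G15 and sham Sox10 was higher by 0.21 (SE 0.067, adjusted p = 0.0297), and this did not pass without replicate 1 or 2 of either group (adjusted p between 0.0798 and 0.102).

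Erbb3, the receptor through which neuregulin from axons reaches glia, was at 19.8, 19.3 and 19.5 FPKM in sham, 22.6, 23.0 and 22.9 FPKM in SNI and 22.4, 23.7 and 21.0 FPKM in SNI + G15. The SNI values were close together and above all sham values, a rise of 0.20 on the log2 scale (SE 0.036, adjusted p = 0.00127). The SNI + G15 values lay on both sides of the SNI values (log2 difference −0.020, SE 0.049, adjusted p = 0.811). Without SNI + G15 replicate 2 and 3 this small difference was −0.062 and 0.020, and on the TPM scale it was −0.11 (limma, adjusted p = 0.251). Against sham the difference was 0.15 (SE 0.056, adjusted p = 0.0462), which lies near the threshold and did not pass in 5 of the 6 fits with 1 library left out.

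Counted together, 7 of the 8 genes changed from sham to SNI, 5 higher and 2 lower, where 45.7% of all tested genes did so (23.3% higher and 22.4% lower). From SNI to SNI + G15, only Gfap and Vim changed by edgeR, both higher, against a background of 15.2% of the tested genes (7.98% higher and 7.25% lower). From sham to SNI + G15, 6 genes were higher and 1 lower, against a background of 43.2% (21.4% higher and 21.9% lower). The FPKM of the groups did not overlap for 7, 4 and 7 of the 8 genes in these comparisons, and for 53.9%, 38.3% and 52.9% of all tested genes. The median log2 fold change of the 8 was 0.25, 0.18 and 0.29 in these comparisons, and that of all tested genes was 0.0010, 0.0063 and −0.0037. On the TPM scale the median of all tested genes between SNI + G15 and SNI was −0.084. There, 27.6% of the genes called between SNI + G15 and SNI were higher, and in edgeR 52.4% were, and Gfap and Vim rose on both scales.

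**Figure D2:**
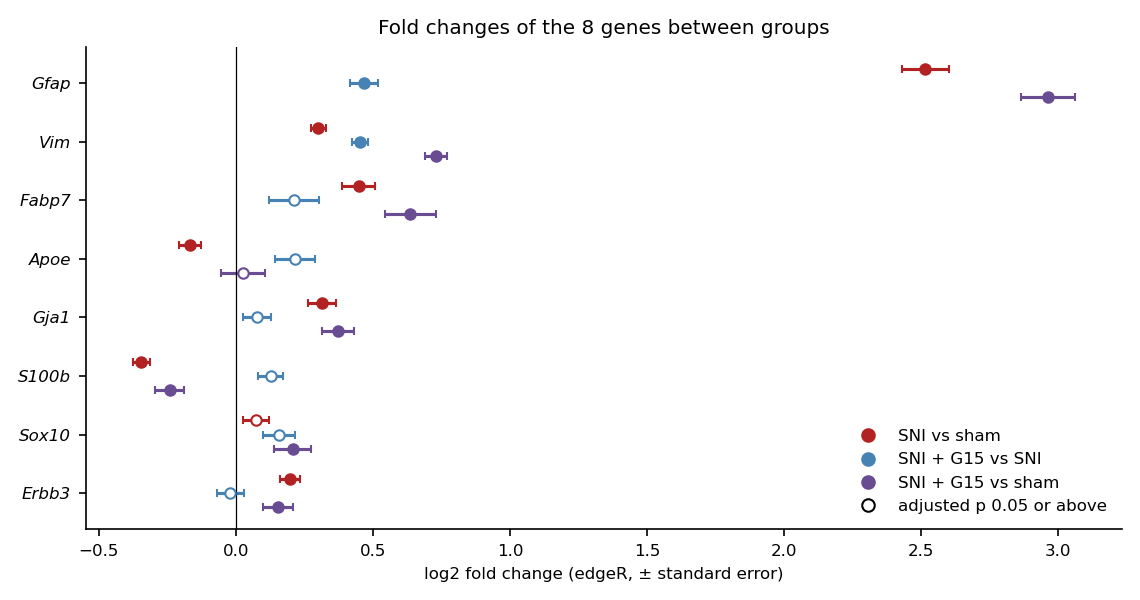
Log2 fold change of each of the 8 genes (x axis, edgeR, bars ± SE) in SNI against sham, SNI + G15 against SNI and SNI + G15 against sham, from 3 libraries per group. Filled points have an adjusted p below 0.05 over 14305 genes; Gfap stands far to the right in both comparisons with sham (2.52 and 2.96), and only Gfap and Vim are filled for SNI + G15 against SNI.

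The order of the 8 genes by FPKM was Apoe, S100b, Vim, Sox10, Fabp7, Erbb3, Gja1 and Gfap in sham, and no neighbours in it overlapped. In both injured groups it was Apoe, Vim, S100b, Fabp7, Sox10, Gfap, Erbb3 and Gja1. Only Fabp7 and Sox10 overlapped there. Vim thus passed S100b in SNI. Their FPKM ratio, Vim over S100b, was between 0.692 and 0.708 in sham, between 1.08 and 1.11 in SNI, and between 1.30 and 1.41 in SNI + G15. Gfap passed Erbb3 and Gja1, and its FPKM was between 0.808% and 1.08% of that of Vim in sham, between 4.14% and 4.43% in SNI and between 4.13% and 4.43% in SNI + G15. The Gfap share of Vim therefore differed between sham and SNI and overlapped between SNI and SNI + G15.

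A ratio within a library does not depend on how libraries are scaled. Gfap was set against the mean log2 FPKM of Sox10, S100b and Erbb3, 3 genes of the glial lineage. The difference was −4.26 ± 0.25 (SD, n = 3) in sham, −1.70 ± 0.058 in SNI and −1.32 ± 0.087 in SNI + G15. The groups did not overlap, and Gfap relative to these genes was higher by 2.55 on the log2 scale in SNI than in sham, by 0.38 in SNI + G15 than in SNI and by 2.93 in SNI + G15 than in sham. An exact two-sided permutation test gave p = 0.1 for each, the smallest that 3 libraries against 3 allow. With 1 library left out the differences were between 2.45 and 2.69, between 0.33 and 0.42, and between 2.83 and 3.07. Schwann cells carry the 3 reference genes too, and S100b itself fell in SNI, its ratio to Sox10 going from between 12.3 and 13.5 to between 9.41 and 9.85. With Sox10 alone as the reference the differences were 2.45, 0.31 and 2.77.

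**Figure D3:**
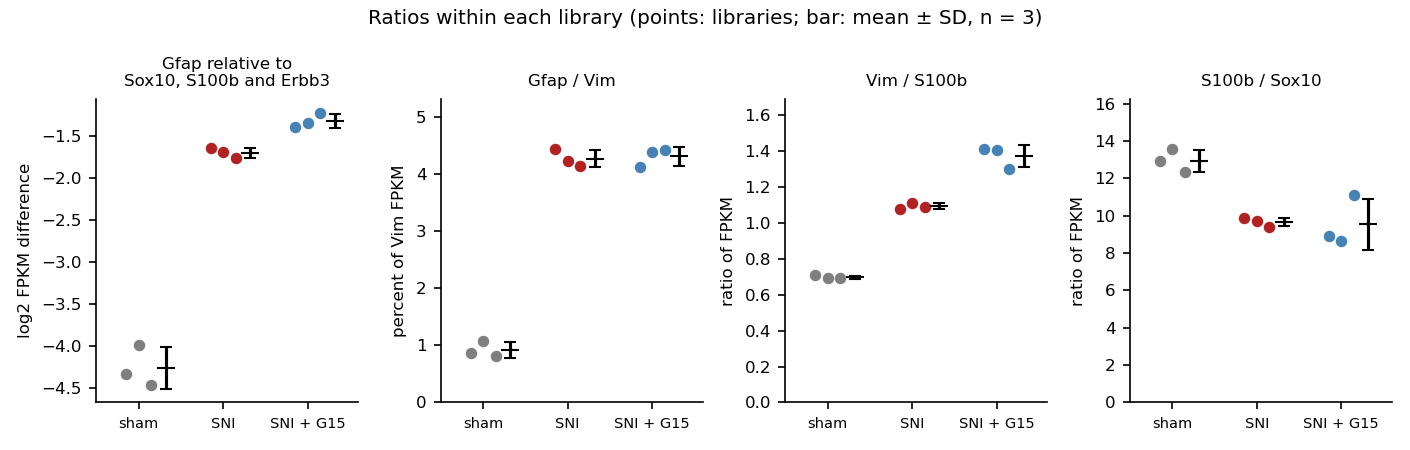
Ratios of FPKM within each library by group: Gfap relative to the mean of Sox10, S100b and Erbb3 (log2 difference), Gfap as a percent of Vim, Vim over S100b, and S100b over Sox10. Points are libraries and bars the mean ± SD (n = 3); the Gfap difference and the ratio of Vim to S100b rise at both steps without overlap, and the Gfap to Vim ratio rises once and is between 4.13% and 4.43% in both injured groups.

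Gfap, Fabp7, Gja1 and Vim each had 1 transcript in the annotation of the deposited table. Apoe had 5, of which 1 carried between 73.9% and 80.4% of the gene's FPKM in every library. S100b had 3, and its main transcript held at least 93.5% in each sham library and 95.0% in each SNI library. Of the Sox10 transcripts, 1 held at least 99.6% in sham and SNI. The FPKM of Erbb3 was split between 2 transcripts, each with between 33.4% and 66.0% in any library.

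Genes listed for the reactive state moved largely in the direction of Gfap after injury. Like all lists here, this list was chosen with earlier results of these data known. Of 15 reactive glia genes, 14 rose and none fell from sham to SNI (median log2 fold change 0.62). Of all tested genes, 23.3% rose and 22.4% fell. Serpina3n, an acute-phase protease inhibitor, rose by 7.39 (SE 0.14, adjusted p = 8.54e-11), from 0.37 ± 0.22 to 64.7 ± 1.96 FPKM, and Socs3, a feedback inhibitor of STAT3 signalling, by 2.79 (SE 0.069). Timp1, an inhibitor of matrix proteases, rose by 2.08 (SE 0.069). From SNI to SNI + G15, 7 of the 15 rose and 3 fell, where 7.98% of all tested genes rose and 7.25% fell. Aspg and the filament gene Nes rose by 0.97 and 0.65, whereas Serpina3n fell by 1.15 (SE 0.044, adjusted p = 1.8e-06) and the chemokine Cxcl10 fell by 0.64. Gfap and Serpina3n, both high in SNI, therefore went in opposite directions in SNI + G15. Neurons and immune cells also make several of these genes.

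Among 11 tested genes of intermediate filaments and their partners, 7 rose and 2 fell in SNI, and Gfap and Vim are themselves among the 7. The shares over all tested genes were 23.3% higher and 22.4% lower. Des, the muscle filament, rose by 1.29 and the lamin Lmnb1 by 0.49, and the filament protein Synm and the linker Plec fell by 0.43 and 0.18. In SNI + G15, 4 rose against SNI, Nes, Gfap, Vim and the neuronal filament Prph (0.10), and Synm fell by 0.14. At this step 7.98% of all tested genes rose and 7.25% fell. Of the 10 neuron markers, Prph included, 3 rose and 6 fell in SNI. The neurofilaments Nefl and Nefm were lower by 0.77 and 0.67, and Stmn2 and Tubb3 were higher by 0.42 and 0.35.

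The lipid genes around Apoe showed no common direction. Of 13 apolipoprotein and lipid transport genes, Apoe included, 5 rose and 5 fell in SNI (median 0.0040). The shares over all tested genes were 23.3% higher and 22.4% lower. The cholesterol exporter Abca1 rose by 1.33 and apolipoprotein D by 0.61 (Apod, from 935 ± 37.3 to 1454 ± 38.2 FPKM), whereas the lipase Lpl fell by 0.83, clusterin (Clu) by 0.35 and the exporter Abcg1 by 0.34. From SNI to SNI + G15, 2 of the 13 rose and none fell (median 0.020). That share of 15.4% was near the 15.2% of all tested genes that changed. Apod rose by a further 0.73 and the sterol receptor Nr1h3 by 0.58. Of 5 tested fatty acid binding proteins, Fabp7 included, 2 rose and 2 fell in SNI. Fabp5 rose by 0.76 beside Fabp7, and Pmp2, a lipid carrier of myelin, fell by 1.95 (from 117 ± 10.2 to 30.9 ± 2.38 FPKM). In SNI + G15, Pmp2 and Fabp5 rose by 0.55 and 0.26.

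Gap junction genes did not follow Gja1 as a group. Of 9 tested connexins and pannexins, Gja1 included, 4 rose and 4 fell in SNI, and of the 8 without Gja1, 3 rose and 4 fell. The shares over all tested genes were 23.3% higher and 22.4% lower. Panx1 rose by 0.94, Gjc1 by 0.91 and the vessel connexin Gja4 by 0.57. The astrocyte-type connexin Gjb6 fell by 1.31 (SE 0.14, adjusted p = 3.33e-05), Panx2 fell by 0.51, and Gjb1, the connexin of myelinating Schwann cells, fell by 0.45. Both Gjb6 and Gjb1 rose from SNI to SNI + G15, by 0.78 and 0.58, where Gja1 gave 0.079 and did not pass.

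Of the 12 tested S100 genes, 5 rose and 2 fell in SNI (58.3%, median log2 fold change 0.041), and S100b and S100a6 were those that fell. Over all tested genes 45.7% changed, 23.3% higher and 22.4% lower. S100a9 and S100a11 rose by 0.69 and 0.59, and S100a5, at a low level, by 0.75 (adjusted p = 0.0447). In SNI + G15, 5 rose and none fell (41.7%, where 15.2% of all tested genes changed), with S100a4 and S100a6 higher by 0.74 and 0.64.

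Of 11 neural crest and glial transcription factors, Sox10 included, 3 rose and none fell in SNI, a share of 27.3% where 45.7% of all tested genes changed (23.3% higher). They were Zeb2, higher by 0.52, Foxd3 by 0.36 and Sox2 by 0.21. In SNI + G15, Nfatc4 and Sox8 rose by 0.48 and 0.40. In the neuregulin and ErbB list, 4 of 10 rose and 4 fell in SNI. Beside Erbb3, the protease Adam17 rose by 0.51, Egfr by 0.48 and Lgi4, a glial ligand needed for myelination, by 0.28. The ligands Nrg1 and Nrg2 fell by 0.46 and 0.31, and Adam22, the receptor of Lgi4, by 0.34. Nrg1 and Adam22 fell by a further 0.19 and 0.20 in SNI + G15.

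A list of 20 other satellite glia genes, all of which were tested, was counted in the same way. In RNA of the whole ganglion such counts cannot show which cells a transcript comes from. Whether the followed genes report satellite glia was therefore not tested. In SNI, 7 rose and 6 fell (65%, where 45.7% of all tested genes changed). The median log2 fold change was 0.055, so that the list showed no common direction. The sodium pump subunit Atp1b2 rose by 0.76 and the adhesion gene Cdh19 by 0.45. In SNI + G15, 6 rose and 2 fell (40%, where 15.2% of all tested genes changed). Glutamine synthetase (Glul), the enzyme that clears glutamate in satellite glia, rose by 0.40 (from 128 ± 2.58 to 167 ± 2.05 FPKM, adjusted p = 0.000265). The glial potassium channel Kcnj10 fell by 0.37 and the glutamate transporter Slc1a3 by 0.29. GFAP is also the filament of astrocytes in the spinal cord, and the central markers Aqp4, Slc1a2, Olig2 and Opalin were below 1 FPKM in all 9 libraries. The 4 of 9 that were tested were Slc4a4, between 11.4 and 14.9 FPKM over all libraries, Hapln2, between 2.22 and 4.28 FPKM, Mog, between 2.29 and 3.02 FPKM, and Mobp, between 0.91 and 4.71 FPKM. All 9 summed to between 21.2 and 24.4 FPKM in sham, 18.9 and 21.6 FPKM in SNI and 23.3 and 26.0 FPKM in SNI + G15.

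Marker lists of other cells of the ganglion were counted as well. Of all tested genes, 45.7% changed from sham to SNI and 15.2% from SNI to SNI + G15. In the list for repair and immature Schwann cells, which can also carry Gfap, 6 of 9 tested genes rose and 1 fell in SNI, with Jun higher by 1.73 and Gap43 by 1.32, both of which injured neurons also express, and Ngfr lower by 0.22. The defining repair genes Gdnf, Olig1 and Artn were below 1 FPKM in all libraries and were not tested. Of these, Gdnf, a growth factor for neurons, was between 0.010 and 0.030 FPKM in sham, 0.10 and 0.13 FPKM in SNI and 0.64 and 0.80 FPKM in SNI + G15. At these low levels the groups did not overlap at either step. The same held for 53.9% of all tested genes at the first step and 38.3% at the second. Olig1 and Artn overlapped between sham and SNI. From SNI to SNI + G15, Olig1 overlapped and Artn did not (0.25 to 0.45 FPKM and 0.48 to 0.82 FPKM). In SNI + G15, 1 of the 9 rose (Shh, 0.23) and 1 fell (Ncam1, 0.25 lower). Among macrophage markers, Cx3cr1 and Adgre1 rose by 1.63 and 1.60 in SNI, and 2 of 10, Cd14 and Mrc1, rose from SNI to SNI + G15. Of 10 fibroblast markers, 3 rose and 5 fell in SNI. Of 9 endothelial and mural markers, 3 rose and 1 fell in SNI, and 3 rose and 1 fell in SNI + G15. Their share in SNI (44.4%) was near that of all tested genes. In SNI + G15 the macrophage share (20%) and the repair Schwann cell share (22.2%) were not far above that of all tested genes. All 6 erythroid genes rose in SNI (median 1.90) and fell in SNI + G15 against SNI (median −1.22). How far these cells bear on the levels of the 8 genes was not tested.

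**Figure D4:**
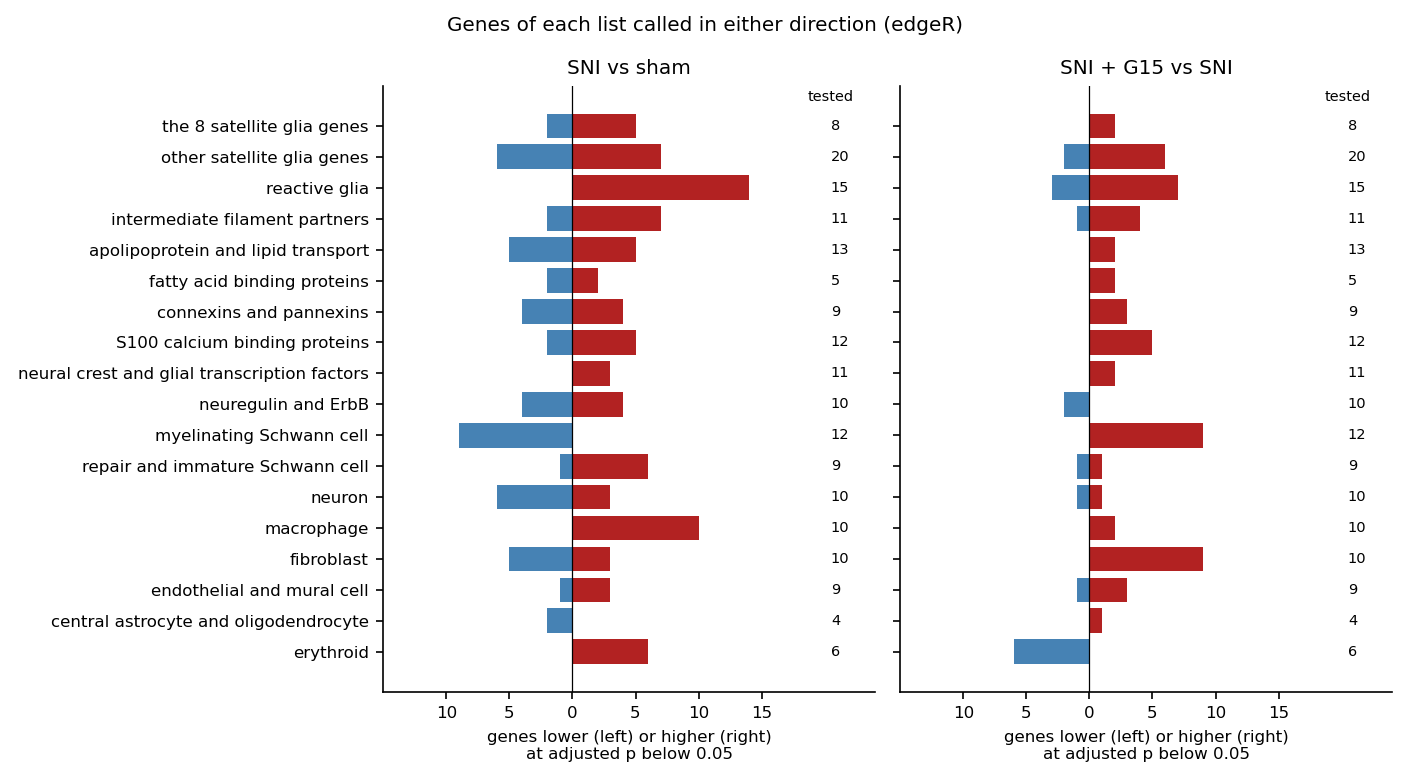
Number of genes of each list that were higher (bars to the right) or lower (bars to the left) at an adjusted p below 0.05 in edgeR, for SNI against sham and for SNI + G15 against SNI, with the number tested at the right. In SNI the reactive glia and macrophage lists point to the right and the myelinating Schwann cell list to the left; in SNI + G15 the myelinating Schwann cell and fibroblast lists point to the right and the erythroid list to the left.

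For each of the 8 genes, the gene outside the list with the most similar profile was found from the root mean square difference of centred log2(FPKM + 1) values over the 9 libraries. For Gfap it was Cryba2 (difference 0.11, where the profile of Gfap itself had a root mean square of 1.23), at 1.60, 13.9 and 19.9 FPKM on average in sham, SNI and SNI + G15. For Vim it was Igfbp4 (0.040), for Fabp7 Ostf1 (0.062), for Gja1 Shc1 (0.032) and for Apoe Ndufa13 (0.014). For S100b it was Slc39a5 (0.031), for Sox10 Itgb4 (0.019) and for Erbb3 Parp1 (0.023). Each was picked as the nearest of all tested genes.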

How the data were processed

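Whole DRG was sequenced as paired 150 bp reads in 9 libraries. For genes and transcripts, the authors deposited 3 measures. FPKM is scaled for length and library size, TPM as deposited sums to 1e+06 in each library, and the estimated counts as deposited are unscaled and may be fractional. No aligner is given in the sources used here. The labels list mouse genome builds while the gene IDs are of rat, so that no coordinates were taken for these values. The labels also name another source material for the RNA, and 2% DMSO where the methods give 1%. Sham values come from columns headed control, the group left once SNI and SNI + G15 have theirs, with the numbers of the sham titles.

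After rounding, estimated counts went into edgeR 4.0.16 (TMM, quasi-likelihood, R 4.3.3), with the 2 groups compared as the only libraries and genes kept that reached 1 FPKM in any of the 9 libraries. The biological coefficient of variation was 5.09% for SNI against sham, 6.35% for SNI + G15 against SNI and 7.19% for SNI + G15 against sham. Alternatives were DESeq2 1.42.0, other size factors and filters, limma 3.58.1 on log2 of FPKM plus 1 or 0.1, a fit of all 9 libraries, a replicate block, each library left out, and limma on log2(TPM + 1), which was added after the data were seen. The code was tested on simulated data. Some genes of the lists are not reported here by name.

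The 8 genes and all gene lists were chosen with earlier results of these data known. Named are the 8 genes, the genes past the threshold with the largest changes in each pathway list (at most 3 per direction for SNI against sham and 2 for SNI + G15 against SNI) and in each list of cell markers (at most 2 per direction), and the nearest profile of each of the 8 genes. The deposited correlation and plot tables were not used.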

Additional observations from a re-analysis of the deposited data

How the results depend on the processing

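Of 408 fold changes of the 8 genes under other settings, 381 kept their direction and their side of the threshold, 17 lost the call, 5 gained it and 5 turned their sign. Gfap and Vim passed in all 3 comparisons under every setting run, the Gfap log2 fold change lying between 2.35 and 2.66 for SNI against sham and between 0.37 and 0.51 for SNI + G15 against SNI. The signs that turned were of small differences. On TPM, Gja1 was at −0.017 in SNI + G15 against SNI and Apoe at −0.036 in SNI + G15 against sham. With 1 library left out, Erbb3 in SNI + G15 against SNI lay between −0.062 and 0.020, positive only without SNI + G15 replicate 3. Likewise Apoe in SNI + G15 against sham lay between −0.063 and 0.11, negative without SNI + G15 replicate 3 and without sham replicate 1 (−0.020). Erbb3 in SNI + G15 against sham also did not pass without a filter (adjusted p = 0.0596), and on TPM neither it nor Sox10 did (adjusted p = 0.319 and 0.184). The cause was not tested.

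The number of genes changed between SNI + G15 and SNI was 2179, and it was 1292 with the replicate number as a block, where Gfap and Vim passed as well. There was no sign that the numbers paired the samples. Deviations of libraries with the same number correlated at between −0.13 and 0.069 over the 3 comparisons. Those with different numbers correlated at between −0.095 and 0.18. With 3 libraries per group such deviations cannot settle the question. The block gave 6440 genes for SNI against sham and 5735 for SNI + G15 against sham, and it changed the call of no other of the 8 genes than Sox10 and Erbb3 in the last comparison (adjusted p = 0.063 and 0.0723). With 1 library left out the 2179 genes became between 893 and 2333, with 1098, 925 and 893 without SNI replicate 1, 2 and 3. The other counts were then between 5382 and 6237 genes for SNI against sham and between 5101 and 6015 for SNI + G15 against sham. Library depth was alike, and Gfap in sham rests on the fewest reads of the 8 genes.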
